A study of Drosophila melanogaster with 54 samples.

Results

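The 10 genes described here encode motors, kinases and checkpoint proteins of the meiotic spindle of the fly Drosophila melanogaster: nod, ncd, sub, Klp61F, Klp3A, aur, Incenp, BubR1, Bub3 and ald. They were taken by symbol from the tables of a study of mRNA translation at egg activation. All 10 were found among the 14250 genes of the unfractionated input tables, in each of the 6 polysome gradients (5563 to 6297 genes listed), and as 1 transcript each among the 5842 transcripts of the ribosome footprint table. The tables list both ald, the kinase gene also called Mps1, and Ald, the aldolase gene, and only ald was taken. The study compared mature oocytes with activated, unfertilised eggs by sucrose gradients and by ribosome footprinting, and added eggs of png mutant mothers to the footprinting. Of its 54 samples, 42 were inputs and gradient fractions and 12 were RNA and footprint libraries.

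The png eggs came from png1058/png1058 mothers and the other eggs from OregonR mothers, a wild-type stock. In both cases virgin females were kept with spermless twine (HB5) males, so that eggs were laid and activated without fertilisation, and eggs were collected over 2 h and stripped of their chorion. Oocytes were stage 14, picked by hand from collagenase-treated ovaries of OregonR females that were 4 days old. Lysates for the gradients held cycloheximide, a drug that stalls ribosomes on mRNA, and each stage had 2 replicate gradients. A further gradient per stage came from lysate treated with 2 mM puromycin, which releases elongating ribosomes. Those lysates were also warmed with the drug, and they and their gradients were made in other buffers without cycloheximide, so the drug and these conditions cannot be told apart. The footprint series had 1 RNA and 1 footprint library without and 1 of each with cycloheximide for png eggs, eggs and oocytes. No label says whether replicates came from separate collections, so the spread between them may be technical.

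In Drosophila oocytes the spindle of the first meiotic division forms around the chromosomes without centrosomes, and kinesin motors bundle and focus its microtubules. The mature oocyte waits in metaphase of that division until activation lets it complete meiosis, and transcription is silent throughout, so that new protein comes from stored mRNA. The png gene encodes the catalytic subunit of PAN GU, a kinase known for its role in changing the translation of maternal mRNAs at activation.

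The libraries differed in ways that touch some of the results. Where single reads could be made out in the input values, they gave about 2.64 to 15.8 M reads in 5 inputs, and the depth of the other input, of the gradient fractions and of the footprint series is unknown. The summed level of 21 follicle cell marker genes, from the cells that surround the oocyte, was 0.5 and 0.848 RPKM (reads scaled to transcript length and library depth) in egg inputs and 28761 and 23589 RPKM in oocyte inputs. The library labelled as the puromycin egg input had 28786 RPKM of these markers, most of it Cp15, whereas the puromycin egg gradient listed 1 of the 21 and the puromycin oocyte gradient 16. The other egg gradients listed 0 and 2 of them and the oocyte gradients all 21. The puromycin egg input thus went against its label, and it entered no main test. All 15 germline markers had at least 1 RPKM in every input. They summed to 1821 RPKM in the puromycin egg input, against 4069 and 4365 RPKM in the other egg inputs. Muscle and fat body markers summed to at most 8.55 RPKM, and hemocyte markers to 7.61 to 74.0 RPKM, most of it crq. Of the summed values of gradients without puromycin, follicle cell markers made up 6.67% and 10.6% in oocytes and 0% and 0.0249% in eggs. In the RNA of the footprint series 2 of these markers were tested. Both were lower in eggs than in oocytes, with a median log2 difference of -8.02. The part of follicle cell RNA in the oocyte values below was not tested.

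The mRNA levels of the 10 genes before fractionation were compared between eggs and oocytes to see how much message was present at each stage. None of the 10 passed the limma test (Benjamini-Hochberg adjusted p under 0.05, two-sided, log2 of RPKM plus 1), against 230 of 6622 genes in all, or 3.47% (0.423% higher and 3.05% lower). An unadjusted p under 0.05 was found for 939 genes and for none of the 10. Incenp, the scaffold subunit that ties Aurora B kinase to chromosomes and midzone, had the highest level, 254 and 218 RPKM in eggs against 158 and 208 RPKM in oocytes. In eggs the lowest level was that of ald, the kinase gene, at 17.7 and 24.8 RPKM against 27.5 and 34.3 RPKM in oocytes. The eggs lay below the oocytes for ald and above them for Incenp without overlap, yet the log2 differences of -0.53 ± 0.29 and 0.37 ± 0.27 (SE, n = 2) missed the threshold at limma adjusted p of 0.436 and 0.533. Without egg replicate 2, ald passed at -0.76 and limma adjusted p of 0.0444, in a fit that called 1880 of 6649 genes.

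Between these, Bub3 and ncd averaged 145 ± 16.8 and 123 ± 8.36 RPKM in eggs, against 173 ± 5.42 and 106 ± 7.90 RPKM in oocytes (SD, n = 2). The levels of aur, nod and Klp3A were close to each other, at 84.6 ± 3.57, 83.8 ± 8.71 and 74.7 ± 11.3 RPKM in eggs. In oocytes the same 3 genes had 97.3 ± 7.69, 106.8 ± 12.2 and 79.2 ± 2.74 RPKM. Klp61F had 53.1 and 54.9 RPKM in eggs, against 51.5 and 54.2 RPKM in oocytes. For sub and BubR1 the levels were 54.9 ± 10.5 and 30.4 ± 3.45 RPKM in eggs, against 60.8 ± 0.767 and 30.9 ± 2.31 RPKM in oocytes (SD, n = 2). Of neighbours in the order of means, those that overlapped in eggs were aur and nod, nod and Klp3A, and sub and Klp61F. In oocytes they were Incenp and Bub3, nod and ncd, ncd and aur, and ald and BubR1. The sequenced RNA was poly(A)-selected, so a difference in amount and one in poly(A) tail cannot be told apart, nor can fewer cells of a type and less RNA per cell.

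Levels were also measured in the RNA libraries made beside the footprints. Between eggs and oocytes none of the 10 passed by limma, with log2 differences between -0.47 for BubR1 and 0.29 for Incenp. Of all 5840 transcripts 0.394% passed, 0.0685% as higher and 0.325% as lower, and 641 had an unadjusted p under 0.05, BubR1 and Klp61F among them. Between png eggs and eggs none of the 10 passed either, where 6.15% of all transcripts did, 4.32% as higher and 1.83% as lower. An unadjusted p under 0.05 was found for 1358 transcripts, nod among them. The largest difference there was that of nod, with 53.6 and 55.3 RPKM in png eggs against 86.5 and 77.6 RPKM in eggs, a log2 difference of -0.58 ± 0.22 (SE) at limma adjusted p of 0.146. With each library centred on its median nod passed at -0.69 (limma adjusted p = 0.0127), and leaving out either pair of oocyte libraries made nod, Klp61F and BubR1 pass, in fits that called 1749 and 1756 of all 5840 transcripts.

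Where each mRNA sat in the gradient was then compared between eggs and oocytes. Fractions held RNA-protein particles free of ribosomes (RNPs), the 40S subunit, the 60S subunit with 80S monosomes, and low, medium and heavy polysomes, and the polysomal share is the part of a gene's amount over all 6 that was in medium (5 to 9 ribosomes) and heavy (10 or more) polysomes. Shares were tested with limma as log2 odds in 1 model of all 6 gradients. Of the 10 genes 2 were higher in eggs, sub and Bub3, and 4 were lower, nod, Klp3A, ald and ncd. Among all 5088 genes 69.1% passed, 18.2% as higher and 51% as lower, and the median log2 odds difference was -0.60, so the counts of the 10 genes are to be read against that shift. The shift depends on how fractions were scaled by the authors. When every fraction was divided by its own total (own-total scaling below) the median became -0.19, with 1435 genes higher and 1922 lower in place of 924 and 2593, and with each gradient centred on its median it was -0.09, with 1594 higher and 1883 lower. Under both of these scalings the 10 genes had 4 higher, with Klp61F and BubR1 added, and 2 lower, nod and Klp3A. The fractions counted as polysomal mattered too. With low polysomes included 1 of the 10 was higher, sub at 0.76, and 6 were lower, with aur and Incenp added and Bub3 no longer called at 0.42, where 652 of all genes were higher and 3030 lower. With heavy polysomes alone 1 was higher, sub, and 2 lower, nod and Klp3A, where 447 of all genes were higher and 2481 lower, and ncd and ald were not called at -0.26 and -0.54.

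**Figure D1:**
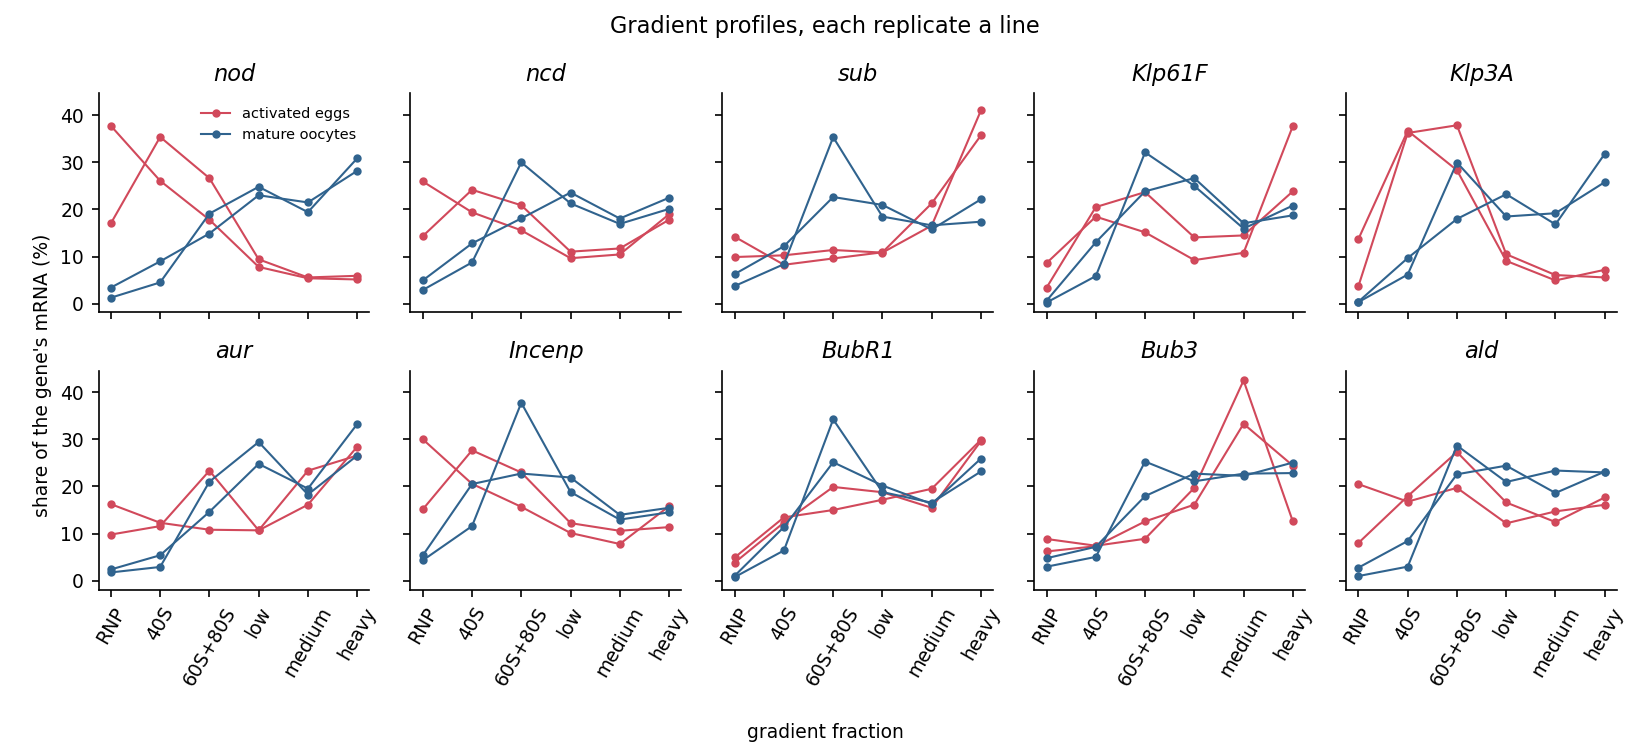
Share of each gene's mRNA (%) in the 6 gradient fractions, from RNPs to heavy polysomes, in 2 egg gradients (red) and 2 oocyte gradients (blue). In eggs nod and Klp3A had at most 7.20% of their mRNA in heavy polysomes, whereas sub had 35.7% and 41.0% there.

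The kinesin genes held the largest falls. The mRNA of nod, a chromokinesin that holds non-exchange chromosomes on the spindle, had a polysomal share of 10.6% and 11.5% in eggs, against 49.7% and 50.3% in oocytes. Both eggs lay far below both oocytes, and the log2 odds fell by 2.99 with an SE of 0.16 (limma adjusted p = 0.000115). In eggs most nod mRNA was in the lightest fractions, with 37.7% and 17.1% in RNPs and 26.1% and 35.4% at 40S, whereas oocytes had 3.44% and 1.29% in RNPs and 8.99% and 4.53% at 40S. Among the 5088 genes listed in all gradients nod stood high in oocytes, above 85.6% and 91.3% of them by polysomal share, and low in eggs, above 13.5% and 11.8%.

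Klp3A encodes a chromokinesin of the kinesin-4 family that acts on the spindle midzone. Its polysomal share was 12.2% and 11.7% in eggs and 48.6% and 45.0% in oocytes, again with no overlap, and the log2 odds fell by 2.68 with an SE of 0.16 (limma adjusted p = 0.000115). Less of its mRNA than of nod mRNA was in RNPs: in eggs 36.7% and 36.2% was at 40S and 28.3% and 37.8% at 60S and 80S, with 13.7% and 3.76% in RNPs. In oocytes 40S held 9.70% and 6.20% of it. The falls of nod and Klp3A stayed large on the other scalings, where the log2 odds of nod fell by 2.44 (own-total) and fell by 2.48 (centred), and those of Klp3A fell by 2.26 and fell by 2.17.

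The kinesin-6 gene sub, whose product Subito bundles the central spindle of the oocyte, went the other way. Its polysomal share was 57.0% and 57.6% in eggs and 37.9% and 34.0% in oocytes, a rise in log2 odds of 1.25 ± 0.17 (SE, limma adjusted p = 0.000972). The rise was in heavy polysomes, which held 35.7% and 41.0% of sub mRNA in eggs against 22.1% and 17.4% in oocytes, while 60S with 80S held 9.61% and 11.4% in eggs against 22.6% and 35.3% in oocytes. The eggs and oocytes did not overlap in any of these.

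Klp61F, the kinesin-5 motor that slides antiparallel microtubules apart, had a polysomal share of 48.5% and 38.3% in eggs and 35.8% and 36.8% in oocytes. Both eggs lay above the oocytes but egg replicate 2 only just, and the log2 odds difference of 0.42 ± 0.23 (SE) missed the threshold at limma adjusted p of 0.147. Without egg replicate 2 it passed, at 0.72 and limma adjusted p of 0.0108. For ncd, a minus-end directed motor that focuses spindle poles, the share was 29.4% and 29.5% in eggs and 40.6% and 37.1% in oocytes. Eggs lay below oocytes, and the log2 odds fell by 0.60 as deposited (SE 0.16, limma adjusted p = 0.0164), the same as the median over all genes, but were 0.04 on own-total scaling and -0.09 with gradients centred. Without oocyte replicate 1 the difference was -0.49 and missed the threshold at limma adjusted p of 0.123.

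**Figure D2:**
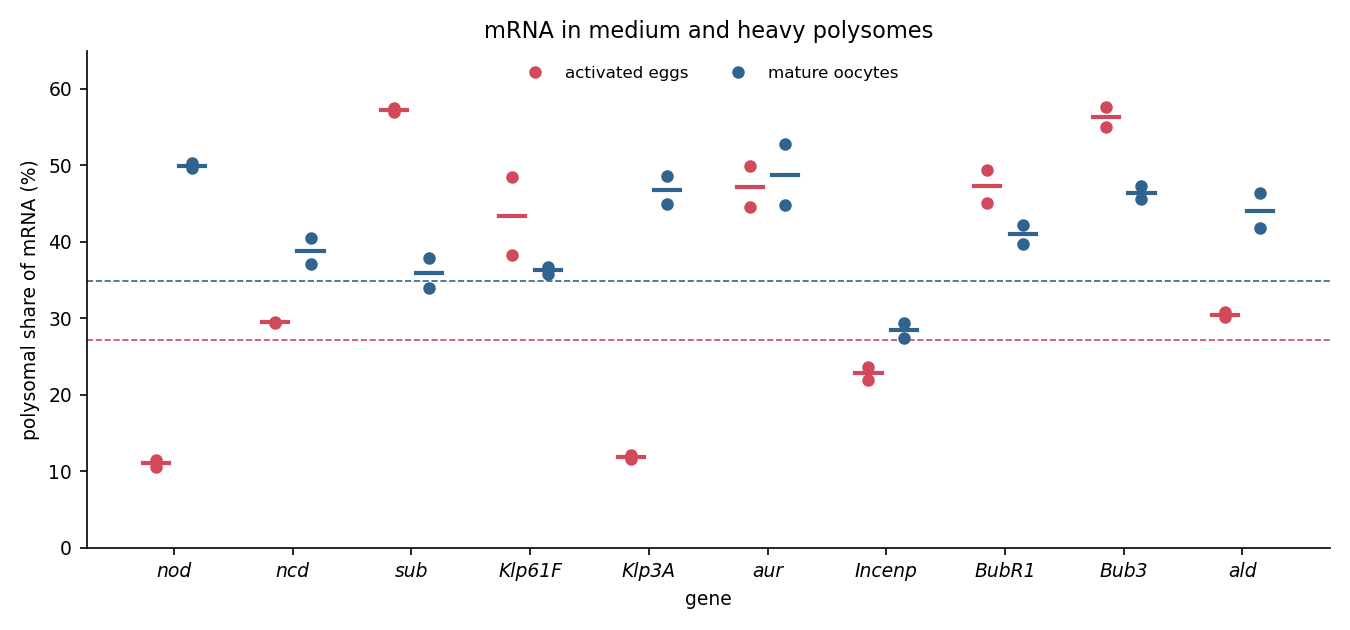
Polysomal share (%) of the 10 mRNAs in 2 egg gradients (red) and 2 oocyte gradients (blue), with short bars for means and dashed lines for the mean over both gradients of the median of all genes. The 4 points of nod and of Klp3A are at or below 12.2% in eggs and at or above 45.0% in oocytes, while those of aur overlap; the difference of ncd is 0.04 in log2 odds, not a fall, on own-total scaling.

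Neither aur nor Incenp passed the test on medium and heavy polysomes. The mRNA of aur, which encodes Aurora A, a kinase of spindle poles and spindle assembly, had a polysomal share of 49.9% and 44.6% in eggs and 52.8% and 44.8% in oocytes. The stages overlapped, and the log2 odds difference was -0.09 ± 0.23 (SE, limma adjusted p = 0.739), or 0.34 on own-total scaling. With low polysomes included aur was called lower in eggs, at -1.19 (limma adjusted p = 0.000454). Incenp had the lowest share of the 10 in oocytes, 29.5% and 27.5%, and 23.6% and 22.0% in eggs. The stages did not overlap, with a log2 odds difference of -0.43 ± 0.16 (SE) that just missed the threshold at limma adjusted p of 0.0509, and that was 0.27 on own-total scaling. It passed in the fit of the 4 gradients without puromycin alone (-0.43, limma adjusted p = 0.0467) and without egg replicate 1 (-0.50, limma adjusted p = 0.0258). It also passed with a pseudocount of 5 (-0.43, limma adjusted p = 0.0476), and with low polysomes included it was at -0.89 (limma adjusted p = 0.00123).

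Of the checkpoint genes, Bub3, a WD-repeat partner that brings BubR1 to kinetochores, had a polysomal share of 55.1% and 57.7% in eggs and 47.3% and 45.6% in oocytes. That rise of 0.58 ± 0.18 in log2 odds (SE, limma adjusted p = 0.028) was not in the heaviest fraction. Medium polysomes held 42.5% and 33.3% of Bub3 mRNA in eggs against 22.3% and 22.7% in oocytes, whereas heavy polysomes held 12.6% and 24.4% in eggs and 25.1% and 22.8% in oocytes and overlapped. With heavy polysomes alone the log2 odds difference turned to -0.54 (limma adjusted p = 0.266), and the call was lost without egg replicate 2 (0.50, limma adjusted p = 0.0905), without oocyte replicate 1 (0.63, 0.0786) or without oocyte replicate 2 (0.52, 0.128).

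BubR1, the checkpoint protein that restrains the anaphase-promoting complex, had a share of 49.4% and 45.1% in eggs and 42.2% and 39.7% in oocytes. The stages did not overlap, but 0.36 ± 0.18 in log2 odds (SE) missed the threshold at limma adjusted p of 0.113. The kinase gene ald, whose product Mps1 acts at kinetochores and in the checkpoint, had 30.8% and 30.1% in eggs and 41.8% and 46.4% in oocytes. Eggs lay below oocytes, and the log2 odds fell by 0.83 (SE 0.17, limma adjusted p = 0.00554), whereas on own-total scaling and with gradients centred the difference was -0.48 and -0.32 and missed the threshold.

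Free RNPs held a larger share of most mRNAs in eggs as deposited. Of the 10 genes 9 were higher in eggs by limma, all but Bub3. In oocyte replicates 1 and 2 the RNP values were low for Klp61F (2.13 and 0.938), Klp3A (2.11 and 1.62) and BubR1 (1.87 and 1.32). These are near the 1 added to each side, so the sizes of their log2 odds differences depend on that constant. Of all 5088 genes 79.9% passed, 79.3% as higher and 0.55% as lower, with a median log2 odds difference of 2.12. The 10 genes ranged from 4.40% ± 0.769 for BubR1 to 27.4% ± 14.6 for nod in eggs, and from 0.407% ± 0.0651 for Klp3A to 5.03% ± 1.79 for sub in oocytes (SD, n = 2). In all 10 genes replicate 1 had the higher RNP share at both stages, in eggs by up to 20.7 points for nod, as it did for the median of all genes (18.3% and 12.2% in eggs, 4.77% and 2.97% in oocytes). On own-total scaling 3 of the 10 were higher, nod, Klp3A and Klp61F, and with each gradient centred 2 were, nod and Klp3A, while sub and BubR1 turned to -0.70 and -0.25 and were not called. Over all genes these scalings gave 1155 higher and 89 lower, and 522 higher and 697 lower, in place of 4037 and 28. Without oocyte replicate 2 only nod and Klp3A of the 10 passed. The call of sub was also lost without egg replicate 1 (1.06) or oocyte replicate 1 (1.71), that of Incenp without egg replicate 1 (1.80) and that of BubR1 without oocyte replicate 1 (1.92).

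Among the 10, the mRNAs most alike in profile were taken as those with the smallest mean difference in share over 6 fractions and the 4 gradients without puromycin. The closest pair was ncd and Incenp, which differed by 3.18 percentage points on average. For nod the closest was Klp3A, at 4.85 points, and the farthest was sub, at 11.1 points, the widest difference of any pair. Klp61F and BubR1 were each other's closest at 3.63 points, and BubR1 was also the closest to sub, aur and Bub3, while ncd was the closest to ald.

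Ribosome footprints gave a measure from other libraries. Translational efficiency was taken as log2(footprint RPKM + 1) minus log2(RNA RPKM + 1), and the library pairs without and with cycloheximide are given in that order. In the limma model 4 of the 10 genes were higher in eggs than in oocytes, Klp61F, BubR1, sub and Bub3, and 2 were lower, nod and Klp3A. Of all 5840 transcripts 70.7% passed, 46% as higher and 24.7% as lower, with a median difference of 0.50. Since no library pair was repeated within a cycloheximide state, the spread behind these p-values is that between states after a shared cycloheximide term, not one between biological samples. On simulated data this model made false calls more often than its threshold allows, so calls near the threshold are less firm than their p-values state. With each library centred on its median, 1883 transcripts were higher and 2565 lower in place of 2686 and 1445; nod, Klp3A, Klp61F and BubR1 kept their direction and call, sub and Bub3 lost theirs at 0.28 and 0.25, and ald was lower at -0.54.

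The footprints of nod were 9.06 and 10.4 RPKM in eggs, against 188.9 and 107.6 RPKM in oocytes, on RNA of 86.5 and 77.6 RPKM in eggs and 89.0 and 81.9 RPKM in oocytes. Its translational efficiency was -3.12 and -2.79 in eggs and 1.08 and 0.39 in oocytes, and it fell by 3.69 with an SE of 0.31 (limma adjusted p = 8.19e-06). Klp3A had 11.0 and 7.68 RPKM of footprints in eggs against 115.6 and 79.8 RPKM in oocytes. Its efficiency of -2.39 and -2.73 in eggs lay below the 0.82 and 0.35 of oocytes, and it fell by 3.14 with an SE of 0.22 (limma adjusted p = 3.32e-06). For both genes the footprints were lower in each egg library than in any oocyte library, as the polysomal shares were.

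The rise was largest for Klp61F, whose footprints were 137.4 and 129.9 RPKM in eggs against 47.6 and 28.0 RPKM in oocytes. Its efficiency was 1.79 and 1.86 in eggs and -0.08 and -0.82 in oocytes, higher by 2.28 ± 0.25 (SE, limma adjusted p = 4.55e-05). BubR1 had the highest efficiency of the 10 in eggs, 2.30 and 2.22, against 0.91 and 0.17 in oocytes, a rise of 1.72 ± 0.26 (SE, limma adjusted p = 0.000295). These are genes whose polysomal share missed the threshold in the gradients as deposited.

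Rises of 1.05 ± 0.26 for sub and 1.02 ± 0.20 for Bub3 (SE, limma adjusted p = 0.00542 and 0.00152) had the direction of their polysomal shares, though neither passed with libraries centred. The efficiency of sub was 0.84 and 0.82 in eggs and 0.09 and -0.53 in oocytes. That of Bub3 was 1.25 and 1.39 in eggs and 0.47 and 0.13 in oocytes. The call of sub was lost without the egg libraries with cycloheximide, at 0.86 and limma adjusted p of 0.0962.

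The other 4 genes missed the threshold. The efficiency of aur was high at both stages, 1.86 and 1.88 in eggs and 1.65 and 0.69 in oocytes, where it was the highest of the 10. Incenp had 0.24 and 0.27 in eggs and -0.09 and -0.89 in oocytes (limma adjusted p = 0.0537), and ncd had 0.31 and 0.38 in eggs and 0.10 and -0.46 in oocytes (limma adjusted p = 0.107). For ald the values were 0.07 and 0.55 in eggs and 0.30 and -0.16 in oocytes and overlapped. Without the oocyte libraries that lacked cycloheximide, aur, Incenp and ncd passed at 1.17, 1.19 and 0.82. With efficiency taken per library pair aur and Incenp passed at 0.69 and 0.75, and Incenp also with a pseudocount of 5 (0.72) and without a cycloheximide term (0.75).

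**Figure D3:**
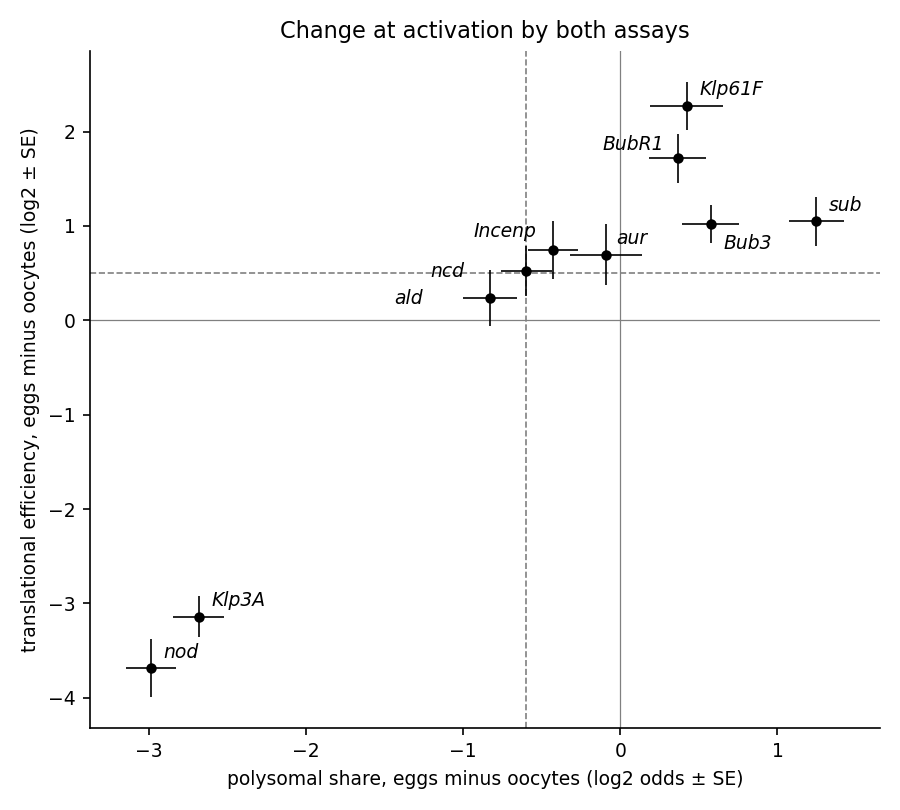
Difference between eggs and oocytes in polysomal share (log2 odds, x axis) and in translational efficiency (log2, y axis) for the 10 genes, with bars of 1 SE; grey lines mark 0 and dashed lines the medians of all genes, -0.60 and 0.50. The genes nod and Klp3A lie apart at the lower left. At the upper right lie sub and Bub3, and also Klp61F and BubR1, which are not called along x. Positions along x move with the scaling of fractions, under which ncd turns to 0.04. Those along y move with centring of libraries, under which sub and Bub3 lose their calls.

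The png eggs were then compared with the other eggs and with oocytes. Their mothers were of another stock than OregonR, so the png mutation and other differences between the stocks cannot be told apart. Against eggs, 3 of the 10 genes were higher in efficiency, nod, Klp3A and aur, and 5 were lower, Incenp, sub, ncd, Klp61F and BubR1. Of all transcripts 70.1% passed, 32.1% as higher and 38% as lower, with a median of -0.11. With each library centred on its median 2762 transcripts were higher and 1823 lower in place of 1876 and 2218, and the 8 genes kept their directions and calls, with Bub3 and ald added as higher at 0.85 and 0.95. This comparison shares its egg libraries with the one above, so a gene low in those libraries would differ in opposite directions in both, and the values are given side by side without a test of their relation.

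Footprints of nod were 271.6 and 254.8 RPKM in png eggs, against 9.06 and 10.4 RPKM in eggs. Its efficiency of 2.32 and 2.18 in png eggs was above that of 94.1% to 95.0% of transcripts, and was higher than in eggs by 5.21 ± 0.31 (SE, limma adjusted p = 1.02e-06). It was also higher in png eggs than in oocytes, whose values were 1.08 and 0.39, by 1.52 ± 0.31 (SE, limma adjusted p = 0.00239). Klp3A had an efficiency of -0.58 and -0.71 in png eggs, between the -2.39 and -2.73 of eggs and the 0.82 and 0.35 of oocytes. It was higher than in eggs by 1.91 ± 0.22 (SE, limma adjusted p = 4.61e-05) and fell by 1.23 with an SE of 0.22 against oocytes (limma adjusted p = 0.00123). The mRNA of nod in png eggs thus had more footprints than at either other stage, and that of Klp3A an intermediate number.

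Aurora A mRNA had the highest efficiency of the 10 in png eggs. Its footprints were 511.9 and 549.1 RPKM in png eggs and 221.9 and 222.3 RPKM in eggs, on RNA of 51.4 and 56.0 RPKM in png eggs and 60.5 and 59.8 RPKM in eggs. The efficiency of 3.29 and 3.27 in png eggs was above that of 99.1% to 99.2% of transcripts and higher than in eggs by 1.41 ± 0.32 (SE, limma adjusted p = 0.00339). That call was lost without the egg libraries that lacked cycloheximide (1.16, limma adjusted p = 0.0970) and without the png egg libraries with it (1.19, limma adjusted p = 0.0555).

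Incenp, sub and ncd fell the furthest of the 10 in png eggs against eggs. Footprints of Incenp were 30.7 and 34.8 RPKM in png eggs against 188.6 and 201.1 RPKM in eggs, and its efficiency fell by 2.71 with an SE of 0.31 (limma adjusted p = 4.46e-05). For sub they were 34.2 and 29.0 RPKM in png eggs against 128.6 and 125.1 RPKM in eggs, and the efficiency fell by 2.25 with an SE of 0.26 (limma adjusted p = 4.79e-05). For ncd they were 29.7 and 31.6 RPKM in png eggs against 111.4 and 124.5 RPKM in eggs, and it fell by 2.09 with an SE of 0.27 (limma adjusted p = 9.53e-05). Against oocytes the png eggs were lower too, with differences of -1.96, -1.21 and -1.56 (limma adjusted p = 0.000604, 0.00338 and 0.000971). The call of sub against oocytes was lost without the png egg libraries that lacked cycloheximide (-1.14, limma adjusted p = 0.0668).

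Klp61F and BubR1 fell by less. Klp61F had an efficiency of 0.92 and 0.73 in png eggs against 1.79 and 1.86 in eggs, and it fell by 1.00 with an SE of 0.25 (limma adjusted p = 0.00623). BubR1 had 1.37 and 1.17 in png eggs against 2.30 and 2.22 in eggs, and it fell by 0.99 with an SE of 0.26 (limma adjusted p = 0.00739). Both were higher in png eggs than in oocytes, by 1.27 ± 0.25 and 0.73 ± 0.26 (SE, limma adjusted p = 0.00232 and 0.0365). Leaving out the egg libraries with cycloheximide or the png egg libraries without it ended the call of either gene against eggs, and leaving out the png egg libraries with cycloheximide ended that of Klp61F, at values between -1.07 and -0.74.

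The efficiency of Bub3 was 1.62 and 1.64 in png eggs, 1.25 and 1.39 in eggs and 0.47 and 0.13 in oocytes. The difference of 0.31 ± 0.20 (SE) between png eggs and eggs missed the threshold at limma adjusted p of 0.202, and png eggs were higher than oocytes by 1.33 ± 0.20 (SE, limma adjusted p = 0.000508). For ald png eggs had 0.77 and 0.65, eggs 0.07 and 0.55 and oocytes 0.30 and -0.16, and neither difference of png eggs passed, though that against oocytes did without the oocyte libraries that lacked cycloheximide (0.96, limma adjusted p = 0.00767). Against oocytes 5 of the 10 genes were higher in png eggs and 4 lower, where 59.3% of all transcripts passed, 36% as higher and 23.3% as lower. The largest of these differences was that of aur, higher in png eggs by 2.11 ± 0.32 (SE, limma adjusted p = 0.000517). Centring each library gave 1959 higher and 1949 lower transcripts in place of 2105 and 1360, with the same 9 genes called in the same directions. The call of BubR1 against oocytes was lost in 5 of the 6 fits that left out the libraries of a stage and cycloheximide state (0.43 to 0.83), all but the one without the oocyte libraries that lacked cycloheximide, and without a cycloheximide term (0.73, limma adjusted p = 0.0600). That of Klp61F was lost without the png egg libraries with cycloheximide (1.21, limma adjusted p = 0.0526).

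**Figure D4:**
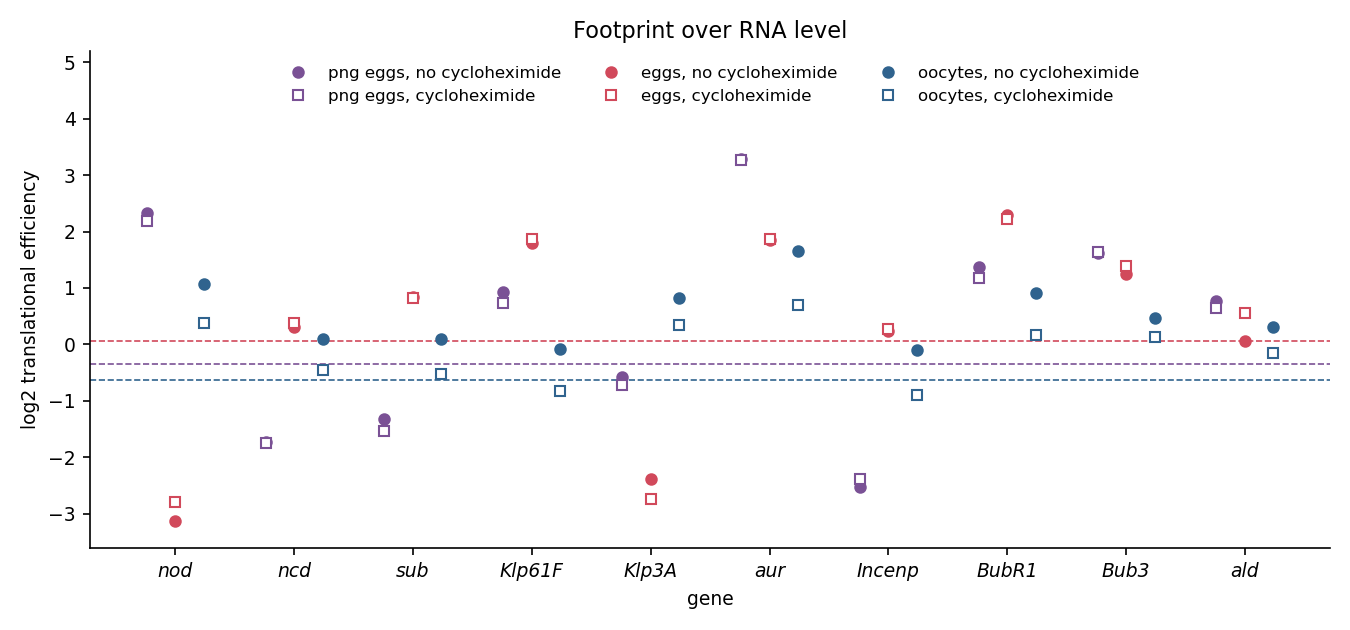
Translational efficiency (log2) of the 10 genes in png eggs (purple), eggs (red) and oocytes (blue), without cycloheximide (filled circles) and with it (open squares), with dashed lines for the mean over both states of the median of all transcripts. In png eggs nod is above 2 and in eggs below -2, while Incenp, sub and ncd are lowest in png eggs.

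Whether mRNA in the polysomal fractions was there by virtue of elongating ribosomes was addressed by puromycin. In the puromycin egg gradient all 10 genes had a polysomal share between 7.17% and 11.4%, against 10.6% to 57.7% in egg gradients without it, and limma called 9 of the 10 lower. Of all genes 81.1% passed, 80.1% as lower and 1% as higher. The exception was Klp3A, with 10.6% with puromycin against 12.2% and 11.7% without (log2 odds -0.18 ± 0.20, SE, limma adjusted p = 0.431). With heavy polysomes alone Klp3A was called lower too (-0.998, limma adjusted p = 0.0352). In the puromycin oocyte gradient the shares were 20.7% to 30.2%, against 27.5% to 52.8% without it, and 8 of the 10 were lower. Of all genes 50% passed, 49.5% as lower and 0.55% as higher. Klp61F, with 30.2% against 35.8% and 36.8%, and Incenp, with 24.5% against 29.5% and 27.5%, missed the threshold there. Each puromycin group was a single gradient, assumed in the model to vary as the replicates did.

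The median polysomal share of all genes was 9.03% in the puromycin egg gradient and 24.7% in the puromycin oocyte gradient. In the puromycin egg gradient the 10 genes lay in a narrow range, so how far each fell there mostly reflected its share without puromycin. This did not hold in oocytes. There sub and Klp61F averaged 36.0% and 36.3% without puromycin, but had 20.8% and 30.2% with it. In eggs sub and Bub3 fell the furthest with puromycin and nod the least of the 9. The gene sub had 7.68% with puromycin against 57.0% and 57.6% without, and its log2 odds fell by 3.99 with an SE of 0.21 (limma adjusted p = 3.74e-05), and Bub3 had 8.74% against 55.1% and 57.7%, where they fell by 3.75 with an SE of 0.22 (limma adjusted p = 3.74e-05). By contrast nod had 7.17% against 10.6% and 11.5% in eggs, where they fell by 0.69 with an SE of 0.19 (limma adjusted p = 0.0146) but were higher by 1.08 on own-total scaling. That call of nod was lost without oocyte replicate 1 or 2 (limma adjusted p = 0.0569 and 0.0553), which share the fit, and that of ald in oocytes without oocyte replicate 2 (-0.74, limma adjusted p = 0.0758). In oocytes nod had 20.8% with puromycin against 49.7% and 50.3% without, and fell the furthest of the 10 as deposited, where its log2 odds fell by 1.93 with an SE of 0.19 (limma adjusted p = 0.00125), against -0.53 and no call on own-total scaling. The difference with puromycin itself differed between eggs and oocytes for all 10 genes in the interaction term, 2 as higher and 8 as lower, where 55.7% of all genes passed, 5.84% as higher and 49.9% as lower. That term uses the same untreated gradients as the comparison of eggs with oocytes above, so it is not separate from that result. With heavy polysomes alone the calls of nod and Klp3A in that term were lost, at 0.35 and 0.41.

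These directions changed with the scaling. In oocytes the median difference with puromycin over all genes was -0.70 as deposited and 0.45 on own-total scaling, where 1817 genes were higher and 723 lower in place of 28 and 2518, and ncd, sub, Klp61F, Incenp, BubR1 and ald turned positive. None of the 8 genes called lower there was called on own-total scaling, whereas Klp61F and Incenp, not called as deposited, were called higher at 1.04 and 1.10. With gradients centred 716 genes were higher and 1028 lower there. In eggs the median was -1.83 as deposited, and own-total and centred scaling gave 1597 higher and 1597 lower, and 1755 higher and 1539 lower, in place of 51 and 4077. In eggs sub, aur, BubR1 and Bub3 were lower with puromycin under all 3 scalings, whereas nod and Klp3A were higher under both alternatives and Incenp and ald, at 0.06 to 0.33, missed the threshold. The calls of ncd and Klp61F in eggs were lost under both, at -0.21 and -0.22 for ncd and -0.49 and -0.66 for Klp61F. In oocytes none of the 10 was called lower under all 3 scalings.

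**Figure D5:**
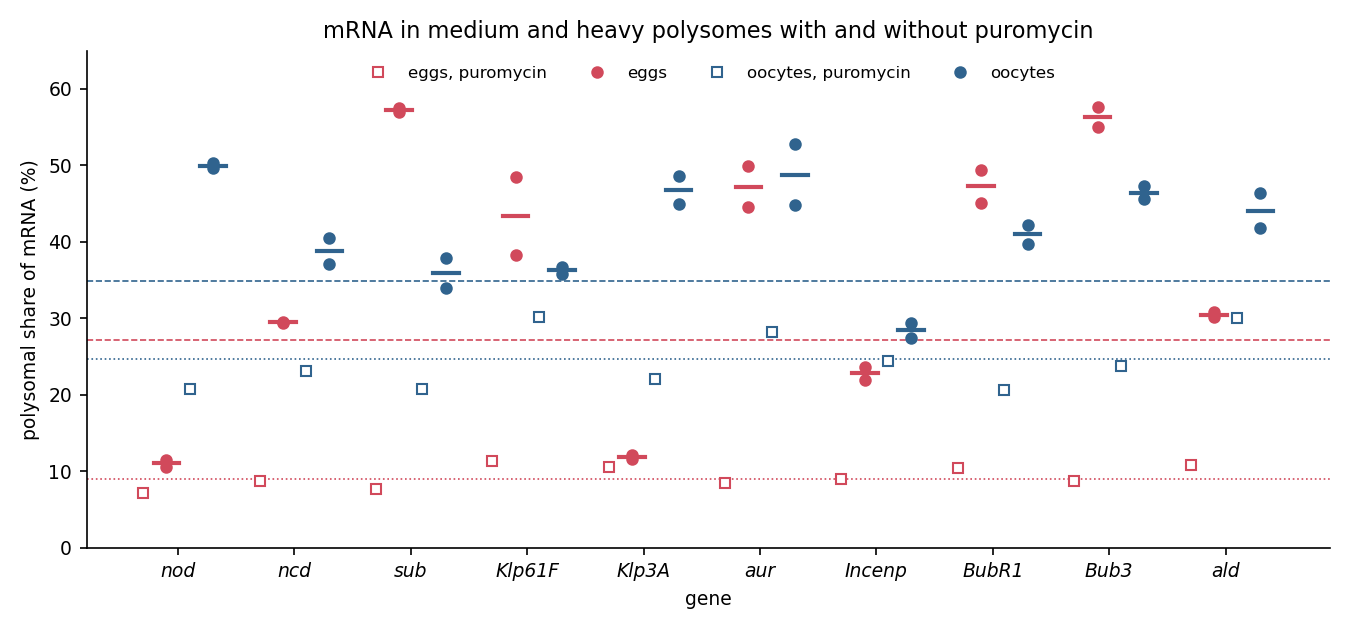
Polysomal share (%) of the 10 mRNAs in the puromycin egg gradient (open red squares) and egg gradients (red circles), and in the puromycin oocyte gradient (open blue squares) and oocyte gradients (blue circles); short bars are means, dashed and dotted lines the medians of all genes without and with puromycin. In eggs all 10 genes lie between 7.17% and 11.4% with puromycin, a level nod and Klp3A were near without it; the direction against untreated gradients changes with the scaling for several genes, as the text gives.

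Genes of the same processes were counted for comparison, by lists chosen with earlier results known. Of 14 tested kinesin and dynein genes outside the 10, 1 was higher and 10 lower in polysomal share in eggs, against 18.2% and 51% of all genes. Their median was -0.95, against -0.60 over all genes. Dhc64C, the heavy chain of cytoplasmic dynein, had a share of 24.5% ± 0.163 in eggs and 76.6% ± 0.916 in oocytes, and Khc, kinesin heavy chain, 25.4% ± 5.01 in eggs and 59.8% ± 2.86 in oocytes. The dynein regulator gene nudE had 52.0% ± 1.73 in eggs and 27.4% ± 0.483 in oocytes (SD, n = 2). In translational efficiency 7 of 20 were higher in eggs and 9 lower, against 46% and 24.7% of all transcripts, with pav, a kinesin-6 of cytokinesis, higher by 3.26 and DCTN1-p150, a dynactin subunit, at -2.71. In png eggs DCTN1-p150 was higher than in eggs by 3.01 and nudE stood at -4.46, with 10 of the 20 higher and 7 lower, against 32.1% and 38% of all transcripts.

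Of 12 other checkpoint and passenger genes, 4 were higher and 4 lower in polysomal share in eggs, against the same 18.2% and 51% of all genes. The passenger subunit gene borr had 72.4% ± 4.88 in eggs and 37.9% ± 2.27 in oocytes, and aurB, which encodes the passenger kinase, 59.6% ± 3.81 in eggs and 39.4% ± 4.24 in oocytes. Spindly, an adaptor for dynein at kinetochores, had 11.0% ± 0.217 in eggs and 64.2% ± 5.78 in oocytes, and rod, a subunit of the complex that recruits it, 9.74% ± 0.866 in eggs and 44.0% ± 1.48 in oocytes (SD, n = 2). In efficiency 6 of 11 were higher in eggs and 2 lower, against 46% and 24.7% of all transcripts, led by Bub1 at 3.57 and Spindly at -3.99. In png eggs against eggs 4 were higher and 3 lower, against 32.1% and 38%, with Spindly at 3.56 and Bub1 at -2.81.

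Of 9 kinetochore and centromere genes 2 were higher and 3 lower in polysomal share, where 18.2% and 51% of all genes were. The shugoshin gene mei-S332, which protects centromeric cohesion, had 44.8% and 41.1% in eggs and 26.0% and 23.8% in oocytes, while Ndc80, a microtubule-binding kinetochore subunit, had 9.65% ± 0.171 in eggs and 35.6% ± 0.0943 in oocytes (SD, n = 2). In efficiency 3 of 10 were higher in eggs and 4 lower, where 46% and 24.7% of all transcripts were, with Cenp-C at 2.68 and Mis12 at -3.52. In png eggs against eggs 4 were higher and 4 lower, where 32.1% and 38% of all were, with Mis12 at 4.41 and Cenp-C at -3.64. Of 30 spindle assembly and microtubule genes 6 were higher and 19 lower in polysomal share, against 18.2% and 51%. The gamma-tubulins parted: gammaTub23C had 69.3% ± 4.85 in eggs and 25.7% ± 0.626 in oocytes, and the maternal gammaTub37C 19.7% ± 4.82 in eggs and 65.1% ± 10.5 in oocytes (SD, n = 2). Their efficiencies in png eggs differed from eggs by -6.42 for gammaTub23C and 4.15 for gammaTub37C. Of 15 cohesin and condensin genes 1 was higher, pim, which encodes securin, with 75.1% ± 3.29 in eggs and 30.4% ± 4.24 in oocytes, and 10 were lower, SA and SMC1 the furthest (SD, n = 2), against the same shares of all genes. The lists themselves were not tested. Their named genes kept direction and call on every scaling tried, in the comparisons for which they are named. With libraries centred, 1883 of all 5840 transcripts were higher in efficiency in eggs than in oocytes and 2565 lower. The list counts then moved to 5 higher and 11 lower of 20 motors and 3 and 5 of 11 checkpoint genes. They moved to 1 and 6 of 10 kinetochore genes and 6 and 19 of 31 spindle genes (10 and 11 as deposited). Of 17 cohesin and condensin genes 6 were higher and 8 lower (8 and 4 as deposited). In png eggs against eggs centring gave 2762 of all 5840 transcripts higher and 1823 lower. The list counts there moved to 12 and 6 for motors, 6 and 3 for checkpoint genes and 6 and 4 for kinetochore genes. Those of spindle genes moved to 20 and 4 (10 and 6 as deposited), and those of cohesin and condensin genes to 8 and 4 (5 and 5 as deposited). With gradients centred the polysomal counts moved to 3 and 6 for motors, 6 and 4 for checkpoint genes and 9 and 15 for spindle genes, and those of kinetochore genes stayed at 2 and 3. Of all 5088 genes 1594 were higher and 1883 lower on that scaling. Cohesin and condensin genes had 3 higher and 8 lower both with gradients centred and on own-total scaling, which had 1435 higher and 1922 lower over all genes.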

How the data were processed

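Values were read from the authors' deposited tables. Inputs held RPKM per gene and gradient tables RPKM normalized by the authors, with each fraction's share of the gene's sum deposited as a fraction from 0 to 1, per the file headers, and the footprint table RPKM per transcript. Per the labels' protocols RNA was poly(A)-selected and 5 ng of yeast mRNA was added to gradient fractions, for some gradients to each of 14 collected fractions, with its use in the normalization not given in the sources used here. TopHat 1.3.2, Bowtie, HTSeq, FastQC and dm3 are named in the submitters' processing notes without roles. In every gradient table the lowest heavy-polysome value listed was 4 or more. Genes below that value in any gradient are thus absent from the shares and ranks over all genes listed in every gradient.

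Medium plus heavy polysomes were set against the other fractions as log2 odds with 1 added to each side. All tests used limma 3.58.1 (lmFit, eBayes with a trend) in R 4.3.3 on all features, with a mean of 1 RPKM or a mean sum of 10 over fractions as filter, and every adjusted p-value is limma's with Benjamini-Hochberg adjustment. No file held counts, and input values came out as whole reads for too few genes (48.6% to 66.4% of low values within 1.5% of a whole read) for a count model. Translational efficiency came from 1 model of 12 libraries with a cycloheximide term per assay. Scaling to its own total divided a fraction by its sum over the 5088 genes listed in all 6 gradients. Fits were tested on simulated data, where the efficiency model, unlike those of input level and polysomal share, made more false calls than the threshold allows. The simulated data held no shift shared by a whole library or gradient, so false calls from such shifts could not show there. The RNP and puromycin comparisons were not simulated. Summaries used python 3.11.15, pandas 2.3.3, numpy 2.4.6 and matplotlib 3.10.9.

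The 10 genes were matched by exact spelling. From other lists the 2 largest rises and falls among called genes could be named, a subset of which is given. Members and lists were chosen with earlier results of these data known. The alternatives tried were other pseudocounts, filters, scalings, numerators and models, the replicate block and leaving out libraries in turn. No sequences or coordinates are given, since no genome of the files' build was used here.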

Additional observations from a re-analysis of the deposited data

Results flagged for a closer look

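The difference with puromycin in polysomal share was itself different between eggs and oocytes for all 10 genes, by the interaction term of the limma model over the 6 gradients, as for 55.7% of all 5088 genes. The interaction is the log2 odds difference with puromycin in eggs minus that in oocytes. It was positive for nod at 1.24 and for Klp3A at 1.45, where 5.84% of all genes were called positive. It was negative for sub at -2.90, Bub3 at -2.27, Klp61F at -2.17, aur at -1.98, BubR1 at -1.53, Incenp at -1.27, ncd at -1.05 and ald at -0.98, where 49.9% of all genes were called negative. On own-total scaling 613 genes were positive and 1445 negative in place of 297 and 2538, and with gradients centred 1368 and 934. Under both, nod and Klp3A stayed positive and sub and Bub3 negative with their calls, while ncd and ald turned to 0.14 and 0.22 with gradients centred and were not called. With heavy polysomes alone 29 genes were positive and 2682 negative, and the calls of nod and Klp3A were lost at 0.35 and 0.41 (limma adjusted p = 0.554 and 0.522), while the other 8 kept theirs. Each stage had 1 puromycin gradient, so the interaction has no replicate of its own. It also shares its untreated gradients with the comparison of eggs and oocytes. With puromycin all 10 genes lay between 7.17% and 11.4% in eggs and between 20.7% and 30.2% in oocytes. The interaction is therefore not separate from the difference between untreated eggs and oocytes. Calls were lost without oocyte replicate 2 for nod (1.22) and ncd (-0.95), and without oocyte replicate 1 for ald (-0.84).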

How the results depend on the processing

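Own-total scaling and centring moved the polysomal results most. Between eggs and oocytes ncd turned to 0.039 on own-total scaling. With heavy polysomes alone Bub3 turned to -0.54 and 3 of the 10 genes passed in place of 6, where 2928 of all 5088 genes passed in place of 3517. With puromycin in oocytes own-total scaling gave 2 calls in place of 8, both new and higher (Klp61F and Incenp), with none of the 8 lower calls left. Over all genes it gave 2540 calls in place of 2546. It turned ncd to 0.37, sub to 0.16, Klp61F to 1.04, Incenp to 1.10, BubR1 to 0.11 and ald to 0.40. Centring, heavy polysomes alone and low polysomes included left 3 lower calls each, where 1744, 870 and 2025 of all genes passed. In eggs, puromycin values turned on own-total scaling and on centring to 1.08 and 1.21 for nod, 1.99 and 1.72 for Klp3A, 0.32 and 0.33 for Incenp and 0.23 and 0.056 for ald, and with low polysomes included to 0.54 for nod and 1.298 for Klp3A. The interaction kept 6, 4 and 5 of 10 calls on own-total scaling, centring and low polysomes included. In those fits 2058, 2302 and 2289 of all 5088 genes passed in place of 2835. Centring turned ncd to 0.14 and ald to 0.22. For RNPs own-total scaling and centring left 3 and 2 of the 10 and 1244 and 1219 of all genes in place of 4065, and centring turned sub to -0.70 and BubR1 to -0.25. Centring the footprint libraries, an alternative chosen after seeing the data, turned ald to -0.54 in efficiency in eggs against oocytes. RNA calls there were 56 with a pseudocount of 5, 35 without a cycloheximide term and 128 centred in place of 23, and in png eggs against eggs 609 with a pseudocount of 5 and 882 centred, with 1 of the 10, in place of 359. The cause of these shifts was not tested.

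Leaving out 1 replicate or library pair at a time gave 0 to 1 of the 10 genes for inputs (167 to 1880 of all), 4 to 7 for polysomal share (2888 to 3665), 2 to 9 for RNP share (1838 to 4020), 7 to 8 for puromycin in oocytes (1617 to 3136), 8 to 9 in eggs (3943 to 4341) and 8 to 10 for the interaction (2311 to 3350). For efficiency it gave 5 to 9 in eggs against oocytes (3006 to 4493), 6 to 8 in png eggs against eggs (3079 to 4731) and 7 to 10 against oocytes (2130 to 3956), and for RNA 0 (8 to 46) in eggs against oocytes and 0 to 3 (3 to 1756) in png eggs against eggs. The replicate block gave 370 input calls in place of 230, kept 6 polysomal calls and made Bub3 pass for RNPs at 1.02. Same-numbered replicates did not deviate together in inputs (r = -0.0276) or polysomal share (-0.0295), and did in RNP share (0.331). No label says that a number marks a shared lysate or day, and 2 pairs are too few to settle whether the numbers pair the gradients, so the block was not used for the results above. With 2 replicates a stage, small differences could not be told from none.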

Other observations

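The inputs of the puromycin lysates, which entered no main test, held the 10 mRNAs at different levels. The library labelled as the puromycin egg input had 32.0 RPKM of nod, against 77.6 and 90.0 RPKM in egg inputs, and 8.87 RPKM of Klp61F against 53.1 and 54.9 RPKM. It had 10.5 RPKM of Klp3A against 82.7 and 66.7 RPKM, and 4.18 RPKM of BubR1 against 27.9 and 32.8 RPKM. Incenp, at 229 RPKM against 254 and 218 RPKM, lay within the range of the egg inputs, and the other 9 genes lay below it. This is the library whose follicle cell markers were at the level of oocyte inputs. The summed level of the 15 germline markers was lower in it too, at 1821 RPKM against 4069 and 4365 RPKM in egg inputs. How many of all genes lay below both egg inputs was not counted. In the puromycin oocyte input ald and BubR1 had 42.9 and 41.7 RPKM, above both oocyte inputs, and nod 106.1 RPKM, between them.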
